A study of Mus musculus with 6 samples.

Results

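The genes described here lie on mouse chromosome 8 between 30 and 95 Mb (build GRCm38). They are the rows of the deposited count table whose first base is at or above 30000000 and whose last base is at or below 95000000, without 15 genes that the rule set aside. There were 1167 such genes among the 54232 of the table, and 1357 genes made up the rest of chromosome 8. The edges were set around a stretch where genes that differed between the study's 2 groups were in excess, so all differences between the groups below are a description of that stretch, with no test of it. RNA was measured in whole testes taken at postnatal day 4 from mice of the strain given as B6D2F1, a name used for crosses of C57BL/6 with DBA/2 mice. In 3 samples the Dis3l2 genotype was WT and in 3 it was cKO, a conditional knockout of the exoribonuclease gene Dis3l2. That gene lies on chromosome 1, not on chromosome 8. The series asks which genes differ between control and cKO testes. The labels name no Cre driver, no deleted exons and no genotype of the controls at a Cre transgene, and they do not say whether each sample came from its own animal. Calls below thus rest on the variation among 3 samples a group, and some of that variation may be technical.

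Genes that lie side by side on a chromosome are passed on together and can share regulatory elements, chromatin domains and promoters. Testes at this age consist of seminiferous cords with Sertoli cells and the first spermatogonia, surrounded by peritubular myoid, Leydig, vascular and immune cells. The segment holds genes used by several of these cells, such as Mmp2 and Ednra, known from connective tissue and vascular cells, Insl3 of Leydig cells, and Nanos3 and Clgn of germ cells.

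The libraries held between 26126694 and 43265614 counts, the fewest in cKO replicate 1. That library stood apart from the other cKO libraries in several measures. Genes of the olfactory and vomeronasal receptor families took 274 CPM in it (CPM are counts scaled to the library's total), against 46.3 and 51.2 CPM in the other cKO libraries and 107 to 127 CPM in WT. Among myoid cell markers, Myh11 had 840 CPM in it and 604 and 581 CPM in the other cKO libraries, and Tagln had 99.2 CPM against 64.7 and 61.3 CPM. Dis3l2 itself, counted over the whole gene, had 32.8, 31.0 and 32.1 CPM in the WT libraries and 30.6, 31.0 and 33.6 CPM in the cKO libraries. That does not check the genotype labels, because exons outside a deleted part are counted. All 10 Sertoli cell, 6 Leydig cell and 5 myoid cell markers examined had a mean of at least 1 CPM. All 20 germ cell markers did so too, and 19 of them were lower in cKO. The germ cell markers summed to 1470 to 1540 CPM in WT and 870 to 956 CPM in cKO, with a median log2 fold change of -0.73. Of the somatic markers, 4 of 10 for Sertoli cells, 3 of 6 for Leydig cells, 3 of 5 for macrophages and 1 of 5 for endothelial cells were higher in cKO and 0 lower, while 0 of 5 for myoid cells were called in edgeR. In whole testes, fewer cells of a type and less RNA per cell cannot be told apart.

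To show what the region's starts of transcription look like, the promoter windows of 4 members are printed here. They are 2 genes that were higher in cKO (Ccdc194, Tmem59l) and 2 that were lower (Tmem221, Dctd), and each runs 5′ to 3′ from 250 bases before the start to 50 bases after it, from RefSeq on GRCm38.p6. Ccdc194 is shown from chr8:71525676-71525975 and Tmem221 from chr8:71558822-71559121, both on the minus strand and near neighbours of opposite direction. Tmem59l is shown from chr8:70487299-70487598 on the minus strand, and Dctd from chr8:48098842-48099141 on the plus strand. Capitals mark matches to 5 motifs searched on both strands: the GC box with the letters GGGCGG, the CCAAT box with CCAAT, the TATA box with TATAAA, the cyclic AMP response element with TGACGTCA and the E-box with CACGTG. The GC box stands as printed in Ccdc194 and on the opposite strand in Tmem59l and Tmem221, and the other matches stand as printed.
Ccdc194: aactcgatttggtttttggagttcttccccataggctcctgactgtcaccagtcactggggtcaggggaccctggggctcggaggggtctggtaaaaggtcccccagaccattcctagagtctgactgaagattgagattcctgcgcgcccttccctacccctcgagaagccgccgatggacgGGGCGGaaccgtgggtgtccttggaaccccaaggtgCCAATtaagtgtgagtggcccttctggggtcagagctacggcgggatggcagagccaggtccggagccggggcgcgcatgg
Tmem59l: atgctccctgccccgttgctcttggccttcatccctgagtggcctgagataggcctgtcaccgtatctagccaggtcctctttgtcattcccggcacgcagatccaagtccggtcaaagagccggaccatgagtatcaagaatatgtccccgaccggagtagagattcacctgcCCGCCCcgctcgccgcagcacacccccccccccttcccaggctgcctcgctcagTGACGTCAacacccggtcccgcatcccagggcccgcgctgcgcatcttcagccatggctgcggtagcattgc
Tmem221: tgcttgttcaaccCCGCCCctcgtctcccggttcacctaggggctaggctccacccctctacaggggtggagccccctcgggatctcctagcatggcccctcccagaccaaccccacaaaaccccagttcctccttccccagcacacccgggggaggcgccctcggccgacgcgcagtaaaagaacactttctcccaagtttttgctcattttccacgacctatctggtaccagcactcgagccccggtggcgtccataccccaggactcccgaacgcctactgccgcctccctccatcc
Dctd: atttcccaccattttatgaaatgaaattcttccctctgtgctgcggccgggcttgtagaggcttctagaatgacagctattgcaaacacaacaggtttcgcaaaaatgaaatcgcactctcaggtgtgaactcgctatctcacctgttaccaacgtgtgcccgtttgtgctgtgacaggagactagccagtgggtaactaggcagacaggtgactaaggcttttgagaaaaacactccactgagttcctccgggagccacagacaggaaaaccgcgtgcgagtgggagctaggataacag

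Within these windows GGGCGG occurred once each in Ccdc194, Tmem59l and Tmem221. CCAAT was found in Ccdc194 and TGACGTCA in Tmem59l, while Dctd had 0 matches, which says only that these letters are not in this window. Of all 32851 windows in the table, 35.7% held GGGCGG, 37.4% CCAAT, 13.6% TATAAA, 1.79% TGACGTCA and 7.15% CACGTG. A window was found for 289 of the 493 members that were measured well enough to test, and for 63 of the 93 that differed. GGGCGG was in 68.3% of the windows of members that differed and in 61.1% of those that did not, and CCAAT was in 46.0% of both. The median GC content was 59.3% and 60.0%, respectively. Among tested genes of the rest of chromosome 8, 67.6% of the windows held GGGCGG and 31.0% CCAAT, and the median GC content was 62.0%. The share of GGGCGG was thus not particular to the segment.

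Many genes of the segment differed between WT and cKO testes, in both directions and more often toward lower levels in cKO. A gene was called when its adjusted p was under 0.05 in a quasi-likelihood fit across all genes that passed a filter on low counts (edgeR). Of the 1167 members, 493 passed the filter, 524 had too few counts and 150 had 0 counts in every library. Among the 493 there were 93 called genes, or 18.9%, against 8.34% of all 20153 genes that passed, 8.06% of those on other chromosomes and 6.96% (38 of 546) of those in the rest of chromosome 8. Lower in cKO were 65 of the 93 and higher 28, where 4.94% of all genes were called lower and 3.4% higher. Counted separately, the 15 genes left out by the rule included 14 that passed the filter and 11 that were called, and with them the segment had 104 called genes of 507 (20.5%). Since the edges were chosen on such calls, these shares are not evidence of an excess. Without cKO replicate 1, the library with more receptor family counts, 28.4% of the segment and 15.7% of the rest of chromosome 8 were called. Calls among all genes rose too, from 8.34% to 16.4%, and members called higher numbered 54 in place of 28. With WT replicate 1, 2 or 3 or cKO replicate 2 each left out in turn, the share of the segment lay between 10.8% and 11.7%, beside 2.97% to 3.99% of all genes.

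Differences in the segment were of larger size than elsewhere, with no common direction over all its members. The median log2 fold change of the members was -0.02, beside 0.01 for all genes tested, and 258 members had values below 0 and 235 above 0. The median absolute log2 fold change was 0.213 in the segment, 0.16 in the rest of chromosome 8 and 0.161 on the other chromosomes. Changes of at least 2-fold (an absolute log2 fold change of at least 1) were called for 21 members, or 4.26% of those tested, against 1 gene (0.183%) in the rest of chromosome 8 and 0.963% of genes on other chromosomes. Of these 21, 15 were lower and 6 higher in cKO. The 15 include the 5 called members with a mean under 1 CPM, which passed the filter through their WT libraries. In 208 members (42.2%) the 3 cKO libraries all lay above or all lay below the 3 WT libraries, which held for 28.2% of all genes tested, and all 93 called members were among the 208.

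**Figure D1:**
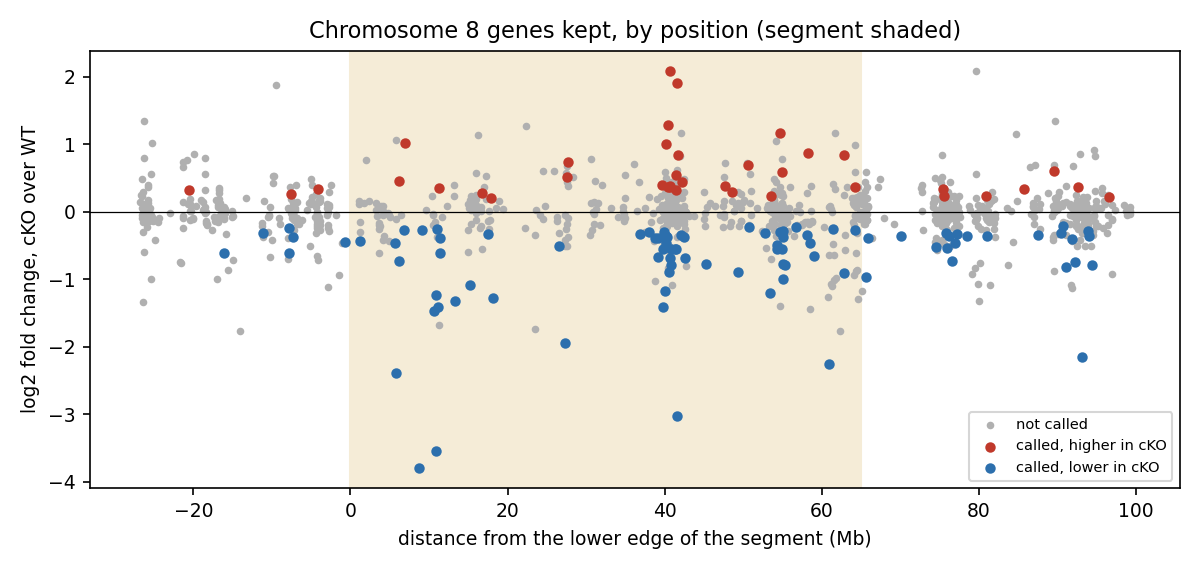
Difference between cKO and WT (log2 fold change) of each chromosome 8 gene that passed the filter (y axis) against its distance in Mb from the lower edge of the segment (x axis), with the segment shaded. Blue points are the genes called lower (65 in the segment) and red points those called higher (28), and the points with the largest falls lie in the segment between 5 and 15 Mb and near 40 Mb from its lower edge.

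Called genes were unevenly spread along the segment. In 5 Mb steps, the share called ran from 0% to 61.5% within it and from 0% to 10.5% in the 13 steps of the rest of the chromosome. The step from 35 to 40 Mb had 8 called genes of only 13 tested (61.5%), and the one from 40 to 45 Mb had 9 of 22 (40.9%). A second high stretch followed from 65 to 70 Mb, with 10 of 30 (33.3%), and from 70 to 75 Mb, the gene-rich part, with 25 of 103 (24.3%). The step from 85 to 90 Mb had 10 of 43 (23.3%). Between them lay steps with no called gene, from 50 to 55 Mb (0 of 9) and from 60 to 65 Mb (0 of 22). At the lower edge, from 30 to 35 Mb, 1 gene of 25 was called, and 6 of 57 (10.5%) were called from 90 to 95 Mb at the upper edge. Of the 13 steps inside, 10 were above the 8.34% of all genes and 3 below it. Falls prevailed from 35 to 45 Mb (14 lower, 3 higher) and from 65 to 70 Mb (9 lower, 1 higher), while 14 genes were lower and 11 higher from 70 to 75 Mb. Those from 35 to 45 Mb include Gm19410, Gm40493 and Gm5345, with means under 1 CPM, which passed the filter only through WT. With steps moved by 2.5 Mb, 10 of 20 genes were called from 37.5 to 42.5 Mb and 32 of 120 (26.7%) from 67.5 to 72.5 Mb. Outside the segment the moved steps reached 13.8% (4 of 29) and, with only 3 genes tested, 33.3%. Elsewhere in the genome, among 5 Mb steps with at least 20 genes tested, the highest shares were 28.0% on chromosome X (90 to 95 Mb) and 26.3% on chromosome 2 (170 to 175 Mb). The step with 61.5% had only 13 genes tested and does not meet that limit, so the like values inside are 40.9% and 33.3%. Smaller steps on other chromosomes were not listed.

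**Figure D2:**
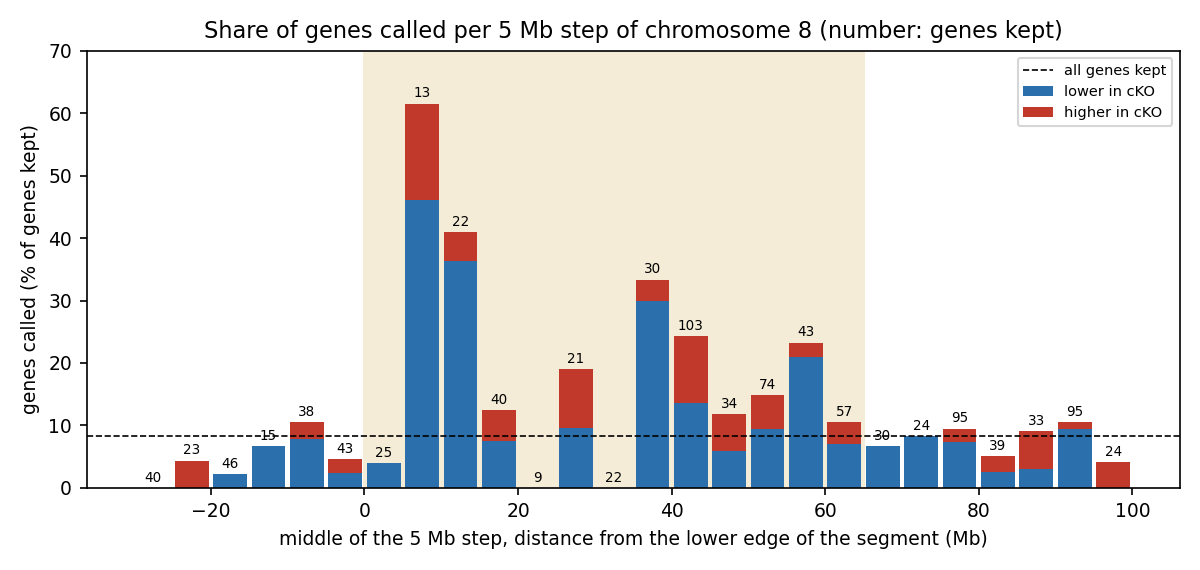
Genes called per 5 Mb step of chromosome 8 as a percentage of the genes tested in that step (y axis), with the number tested above each bar, against the distance of the step's middle from the lower edge of the segment in Mb (x axis). Blue parts are genes lower and red parts genes higher in cKO, the dashed line is the 8.34% of all genes, and the tallest bar (61.5% of 13 genes) stands in the shaded segment.

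The called members were not limited to 1 level of expression. Among genes with a mean from 10 to 100 CPM, 53 of 209 members (25.4%) were called, against 9.5% in the rest of chromosome 8 and 11.4% on other chromosomes. From 1 to 10 CPM it was 22 of 119 (18.5%), against 3.52% and 6.63%. Above 100 CPM it was 13 of 53 (24.5%), against 16.7% and 12.8%, and below 1 CPM it was 5 of 112 (4.46%), against 0.855% and 1.21%. The median level was alike, at 12.6 CPM in the segment, 11.6 in the rest of chromosome 8 and 10.7 on other chromosomes. Of 370 protein-coding members tested, 85 were called (23.0%), against 8.19% in the rest of chromosome 8 and 9.72% on other chromosomes. The other 123, mostly long noncoding RNAs and pseudogenes, had 8 calls (6.5%), against 3.05% and 2.83% of such genes. The segment took 2.18% to 2.21% of all counts in the WT libraries and 2.14% to 2.19% in the cKO libraries.

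A dense group of called neighbours lay from 40.5 to 41.5 Mb, a window drawn after the calls were seen. Of 12 genes tested there 8 were called, 7 lower and 1 higher in cKO. Mtmr7, which encodes a myotubularin family phosphatase of phosphoinositides, had 16.7, 16.6 and 16.8 CPM across WT and 6.7, 5.47 and 5.93 CPM across cKO. The WT values lay close together and the cKO values all far below them (log2 fold change -1.47, SE 0.11). Slc7a2, an arginine and lysine transporter gene, had 45.9, 42.5 and 45.5 CPM across WT and 20.3, 18.7 and 18.5 CPM across cKO (log2 fold change -1.22, SE 0.07). Fgl1, which encodes a secreted fibrinogen-like protein, had 4.47, 5.07 and 5.02 CPM across WT and 2.06, 1.7 and 1.78 CPM across cKO (log2 fold change -1.40, SE 0.17). Pcm1, whose protein builds centriolar satellites, lies next to these genes and went the other way, from 444, 472 and 467 CPM to 605, 607 and 565 CPM (log2 fold change 0.36, SE 0.05). Asah1, encoding the lysosomal acid ceramidase, followed at 120, 114 and 114 CPM across WT and 76.6, 78.8 and 73.5 CPM across cKO (log2 fold change -0.60, SE 0.05). Smaller falls were seen in Frg1 (-0.38, SE 0.07) and Mtus1 (-0.25, SE 0.05), which encodes a microtubule-associated protein. The pseudogene Gm5345, just upstream of Slc7a2, had 0.809 to 1.88 CPM in WT and 0.0381 to 0.172 CPM in cKO, and it was named after its values were seen. Pdgfrl, between Slc7a2 and Mtus1, was not called. It had 10.7, 9.69 and 9.6 CPM in WT, but 13.6 CPM in cKO replicate 1 and 5.55 and 4.53 CPM in the other cKO libraries, so that cKO replicate 1 lay above every WT value and the others below.

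**Figure D3:**
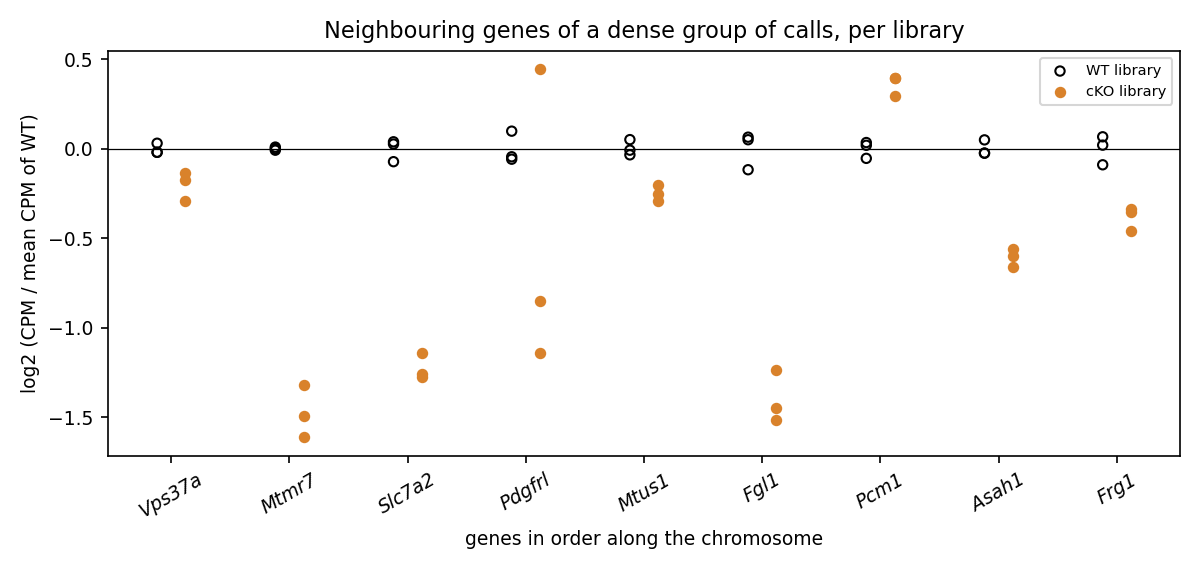
Log2 ratio of each library's CPM to the WT mean (y axis) for the 9 neighbouring genes averaging 1 CPM or more between 40.5 and 41.5 Mb, in chromosome order (x axis), with open points for WT and filled points for cKO libraries. The cKO points of Mtmr7, Slc7a2 and Fgl1 lie more than 1 unit below 0, those of Pcm1 above 0, and those of Pdgfrl on both sides.

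Over the whole segment, 22 pairs of next neighbours were both called, 13 of them in the same direction and 9 in opposite directions. In the rest of chromosome 8 there was 1 such pair. The share called was 18.9% in the segment and 6.96% in the rest, and a higher share by itself brings more such pairs. Likewise, 65 of the 93 called members were lower, which by itself makes pairs of the same direction common. The number of pairs to be met at these shares was not computed, so the counts are no evidence of clustering. The longest run of called neighbours held 4 genes from 36567751 to 39165114: Dlc1, known as a tumour suppressor gene, AI429214, Gm40493 and Tusc3, encoding a subunit of the oligosaccharyltransferase. Dlc1 and Tusc3 both fell by 0.27 on the log2 scale (SE 0.05 and 0.08). AI429214 rose from 2.81, 2.88 and 2.68 CPM to 5.26, 6.05 and 5.65 CPM (log2 fold change 1.02, SE 0.15). Neighbours thus differed in direction within the same few megabases.

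Among the 12 largest rises of genes with official symbols, 2 genes had high levels in both groups. Adcy7, an adenylyl cyclase gene at 88.3 Mb, had 125, 125 and 127 CPM across WT and 225, 229 and 240 CPM across cKO. The libraries of each group lay within a narrow range and far from those of the other group (log2 fold change 0.88, SE 0.05, a 1.84-fold difference). Mmp2, which encodes a gelatinase that degrades basement membrane and stromal collagen, had 182, 167 and 179 CPM across WT and 291, 307 and 348 CPM across cKO (log2 fold change 0.84, SE 0.07). Galnt7, a transferase gene of mucin-type glycosylation, rose from a mean of 62.1 ± 2.38 CPM across WT to 89.3 ± 7.36 across cKO (n = 3 each, SD), a log2 fold change of 0.53. Beside these rises, Sertoli cell markers summed to 3860 to 3940 CPM in WT and 4220 to 4850 CPM in cKO. Leydig cell markers summed to 428 to 440 and 476 to 526 CPM, and endothelial markers (1 of 5 called) to 488 to 498 and 517 to 565 CPM. Myoid cell markers, with 0 of 5 called, summed to 1500 to 1560 CPM in WT and 1400 to 1870 CPM in cKO. Such sums are weighted toward the genes with the most counts, such as Cdh5 of the endothelial markers (not called) and Clu of the Sertoli markers (called higher). The part of these cell types in the rises was not tested.

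The other rises were in genes with fewer counts. Ccdc194, a coiled-coil gene, had the largest among genes with official symbols and at least 1 CPM, with 0.714, 0.437 and 0.446 CPM across WT and 1.75, 2.1 and 2.21 CPM across cKO (log2 fold change 1.92, SE 0.30). Tmem59l, which encodes a membrane protein, had 3.0, 4.49 and 3.63 CPM across WT and 9.03, 9.06 and 9.09 CPM across cKO (log2 fold change 1.29, SE 0.15). For neither gene was cKO replicate 1 the highest library. Slc25a42, a mitochondrial coenzyme A transporter gene, rose from a mean of 6.33 ± 0.541 CPM across WT to 12.6 ± 2.09 across cKO (n = 3 each, SD), a log2 fold change of 1.0. Jak3, a kinase of cytokine receptors in immune cells, rose from a mean of 2.83 ± 0.499 CPM across WT to 5.06 ± 0.556 across cKO (n = 3 each, SD), a log2 fold change of 0.84. Beside this last gene, the 5 macrophage markers examined (3 higher in cKO, 0 lower, none at 0) summed to 63.7 to 70.1 CPM in WT and 85.4 to 90.7 CPM in cKO, and their part in the result was not tested. Further rises were 0.74 for the noncoding AW046200, 0.70 for Frem3 of the basement membrane, 0.59 for Dnase2a and 0.55 for Ano8. The antisense model Gm11175, which overlaps Jund, was called higher as well (log2 fold change 2.08, SE 0.48) and was named after its values were seen. Its WT values were 0.262, 1.45 and 0.335 CPM and its cKO values 3.47, 2.51 and 2.9 CPM.

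Outside the group of neighbours above, Clgn, Zfp42 and Pbx4 were among the largest falls. Clgn, encoding the endoplasmic reticulum chaperone calmegin of male germ cells, had 6.73, 8.66 and 8.34 CPM across WT and 3.66, 3.8 and 2.84 CPM across cKO (log2 fold change -1.21, SE 0.16). Zfp42, the pluripotency marker also called Rex1, had 3.97, 2.12 and 3.21 CPM across WT and 1.18, 1.34 and 1.2 CPM across cKO (log2 fold change -1.31, SE 0.26). The homeobox gene Pbx4 had 2.05, 1.98 and 2.43 CPM across WT and 0.381, 0.994 and 1.0 CPM across cKO (log2 fold change -1.40, SE 0.32). The groups did not overlap in any of these genes, which the choice of the largest falls required. The germ cell markers, with 19 of 20 lower in cKO and a median log2 fold change of -0.73, moved in the same direction. In the list of germ cell genes of the segment given below, to which Clgn does not belong, 0 of 3 were called. The part of the germ cell markers in these falls was not tested.

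Further large falls were seen in genes of various functions. Dctd, the deoxycytidylate deaminase gene of the thymidine nucleotide pathway, had 46.9, 47.7 and 51.2 CPM across WT and 18.4, 21.8 and 20.1 CPM across cKO (log2 fold change -1.27, SE 0.08). Its lowest WT value exceeded every cKO value by more than the spread within either group. Lpcat2, a phospholipid acyltransferase gene, had 35.7, 36.9 and 35.1 CPM across WT and 18.4, 19.7 and 19.6 CPM across cKO (log2 fold change -0.90, SE 0.07). Ccdc124, encoding a ribosome-associated protein, fell from a mean of 39.3 ± 2.38 CPM across WT to 22.7 ± 0.197 across cKO (n = 3 each, SD), a log2 fold change of -0.79. The zinc finger gene Zfp791 (-0.99) and the brain proteoglycan gene Ncan (-1.17) were further large falls. At 75.2 Mb, the small GTPase gene Rasd2 fell by 0.77 on the log2 scale (SE 0.10).

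Below the level required for that list, 5 called members had a mean under 1 CPM, all of them lower in cKO. All 5 passed the filter on low counts through their WT libraries. The direction and size of their differences thus follow in part from how they entered the test, and are no evidence of falls. Tmem221, whose promoter is printed above, had 0.642, 1.17 and 1.06 CPM across WT and 0.114, 0.146 and 0.086 CPM across cKO (log2 fold change -3.02, SE 0.49). The antisense RNA Gm40493 had 0.928, 0.99 and 0.391 CPM in WT and was at 0.0762, 0 and 0.086 CPM in cKO. Gm19410 had 0.76 to 1.05 CPM in WT and 0.0877 to 0.229 CPM in cKO. These genes were named after their values were seen, and the remaining members of the 5 were Gm5345 and Gm34030.

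**Figure D4:**
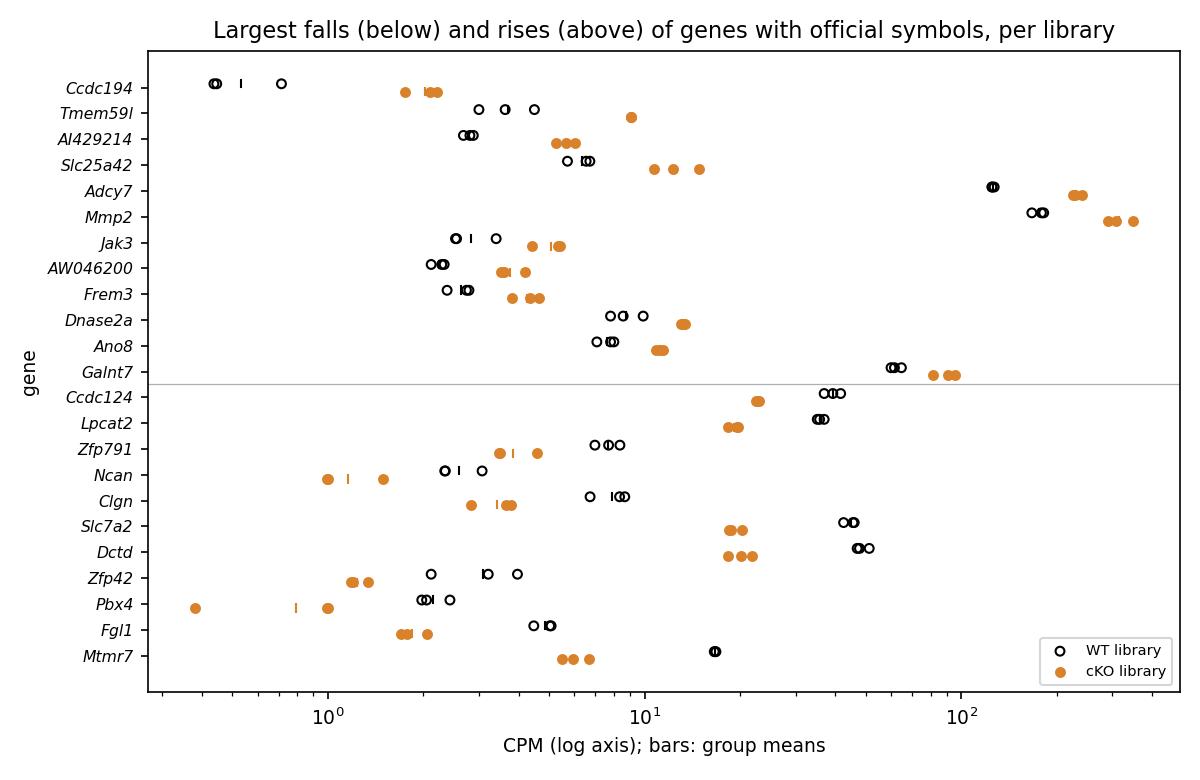
CPM in each library (x axis, log scale) of the largest falls (lower rows) and the 12 largest rises (upper rows) among called members with official symbols averaging 1 CPM or more, open points for WT and filled points for cKO, with bars at the group means. In each row the 3 WT libraries are separate from the 3 cKO libraries, which the choice of these genes required. Group means run from Ccdc194 in WT near 0.5 CPM to Mmp2 in cKO above 100 CPM, and the lowest single library is Pbx4 in cKO replicate 1 (0.381 CPM).

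The segment's genes were also grouped by function, in 10 lists. Each is read against the 18.9% of the segment's tested genes called, beside 8.34% of all genes, and the overall median of 0.01. With so few genes in a list, a share above 18.9% is not a result about its function. Of 9 replication and repair genes, 1 fell and 8 were not called, with a median of -0.17. The one that fell was Orc6, a subunit of the origin recognition complex, with 52.4, 46.0 and 42.6 CPM across WT and 27.0, 27.7 and 27.4 CPM across cKO (log2 fold change -0.78, SE 0.08). Mcm5, of the replicative helicase, had a value of -0.20 and was not called. Of 12 RNA processing and translation genes, 3 fell and 9 were not called, with a median of -0.15. Lsm4, a core of the complexes that bind U6 RNA and decaying messages, had 84.5, 95.4 and 96.4 CPM across WT and 54.0, 58.3 and 59.2 CPM across cKO (log2 fold change -0.69, SE 0.07). Naf1, an assembly factor of box H/ACA ribonucleoproteins, fell by 0.33. Upf1, the helicase of nonsense-mediated decay, and Tent4b, a noncanonical poly(A) polymerase, both had values of -0.15 and were not called.

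Of 7 lysosomal genes, 2 fell, 1 rose and 4 were not called, with a median of -0.19. Besides Asah1, the proton pump gene Atp6v1b2 fell by 0.38, while Dnase2a, which encodes the lysosomal nuclease, had 7.81, 9.9 and 8.56 CPM across WT and 13.2, 13.0 and 13.4 CPM across cKO. Of 9 metabolic genes, 3 fell and 6 were not called: Slc7a2, the glutaryl-CoA dehydrogenase gene Gcdh (-0.55) and Fto (-0.25), an RNA demethylase gene. Of 9 genes of protein folding and secretion, 0 were called in edgeR, DESeq2 or limma-voom, and 2 had an unadjusted p under 0.05 in edgeR. Their log2 fold changes lay between -0.16 (Vps35 of the retromer) and 0.16, among them 0.04 for the chaperone gene Calr.

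Of 18 transcription factor genes and cofactors, 1 rose, 2 fell and 15 were not called, with a median of -0.02. Sall1, a zinc finger repressor of kidney and gonad development, had 27.3, 28.6 and 30.7 CPM across WT and 15.3, 18.6 and 21.3 CPM across cKO (log2 fold change -0.65, SE 0.11). Gatad2a, of the NuRD complex, fell by 0.36, and Irf2, an interferon regulatory factor gene, rose by 0.27. Nfix had 784 to 830 CPM in WT and 771 to 828 CPM in cKO, ranges that overlapped. Of 4 immediate early genes, 1 rose: Jund, of the AP-1 factor, had 251, 244 and 246 CPM across WT and 274, 326 and 371 CPM across cKO (log2 fold change 0.39, SE 0.09). Of 6 genes of oxidative stress and metal binding, the metallothionein gene Mt1 rose by 0.37 (SE 0.07) and 5 were not called, its neighbour Mt2 having a value of 0.11 (SE 0.13).

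Of 11 genes for signals and receptors, 2 rose and 9 were not called, with a median of 0.12. They were Mmp2 and the endothelin receptor gene Ednra, which had 339, 353 and 351 CPM across WT and 478, 438 and 451 CPM across cKO (log2 fold change 0.39, SE 0.05). Insl3, the Leydig cell hormone for testis descent, had 4.83, 4.63 and 4.77 CPM across WT and 3.96, 4.97 and 5.9 CPM across cKO, so that the groups overlapped. Insl3 lies within the end of Jak3 on the same strand, where reads over both genes were not counted. Of 3 germ cell genes that could be tested, 0 were called in edgeR, DESeq2 or limma-voom, and 1 had an unadjusted p under 0.05 in edgeR. The synaptonemal complex gene Syce2 had a value of -0.30 (SE 0.10), and Nanos3, needed for survival of germ cells, had -0.08 (SE 0.19).

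The spread among libraries of the same group was close to that of other genes. It is not independent of the calls around which the edges were set, because a call weighs the difference against this spread. For each gene the deviations of log2 CPM from the group means were pooled into a within-group SD. Its median was 0.147 in the segment, 0.147 in the rest of chromosome 8 and 0.154 on other chromosomes. By level, the medians in the segment and on other chromosomes were 0.516 and 0.515 below 1 CPM, 0.237 and 0.236 from 1 to 10 CPM, 0.0953 and 0.0949 from 10 to 100 CPM, and 0.0687 and 0.0643 above that. In the step from 35 to 40 Mb the median within-group SD was 0.18 beside a median absolute log2 fold change of 0.452, and from 40 to 45 Mb it was 0.14 beside 0.365. From 65 to 70 Mb the values were 0.12 and 0.296. In the step from 55 to 60 Mb the within-group SD was 0.353 and the median absolute log2 fold change 0.451, at a median level of 1.32 CPM, so that the larger differences there came with larger spread. The mean deviation of single libraries per step lay between -0.187 and 0.237 inside the segment and between -0.134 and 0.133 outside.

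**Figure D5:**
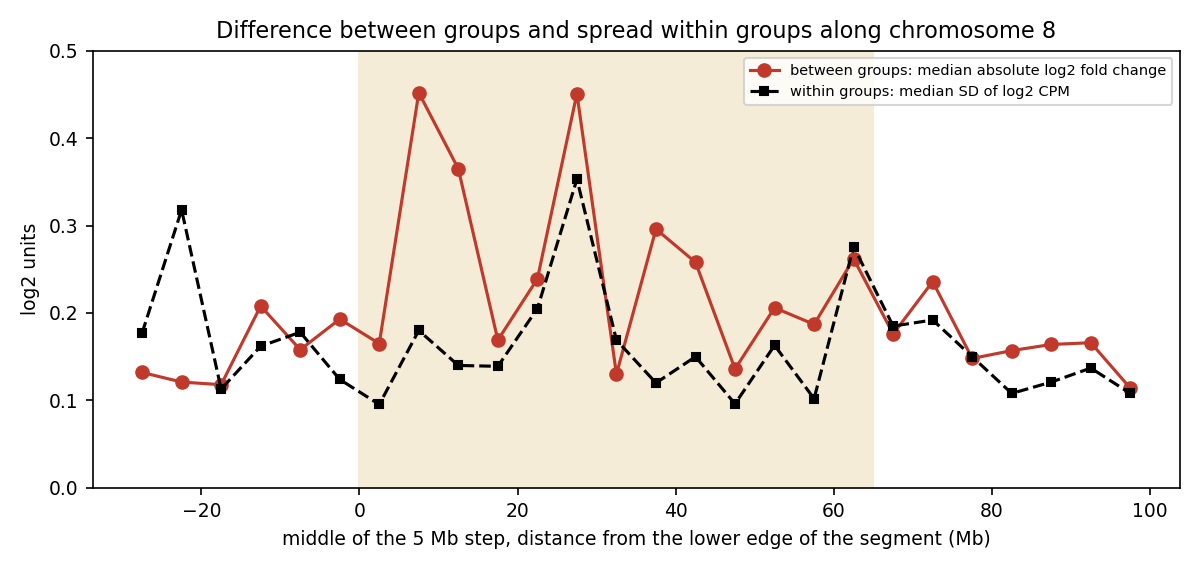
Median absolute log2 fold change between the groups (red circles) and median within-group SD of log2 CPM (black squares), both in log2 units on the y axis, for each 5 Mb step of chromosome 8 by its distance from the lower edge of the segment in Mb. The red line reaches 0.452 and 0.365 in the shaded segment where the black line stays at 0.18 and 0.14, and in the step 22.5 Mb below the edge, outside the segment, the black square (0.318) lies above the red circle (0.121).

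The steps at the 2 edges, with 4.0% called from 30 to 35 Mb and 10.5% from 90 to 95 Mb, lay below the segment's 18.9%. Some steps between them were lower still, at 0%. The first called gene inside the lower edge was Fut10, a fucosyltransferase gene at 31187331 to 31261738, with 38.0, 39.9 and 42.8 CPM across WT and 29.6 to 30.1 CPM across cKO (log2 fold change -0.43, SE 0.07). Below the edge, the nearest called gene was Star at 25806555 to 25815982, the cholesterol carrier of steroidogenic cells, which rose by 0.34 on the log2 scale (SE 0.06). Inside the upper edge the last called gene was Nup93, of the nuclear pore, at 94214564 to 94317227 (log2 fold change -0.26, SE 0.06). Beyond it, Ndrg4 at 95676980 to 95715119 fell by 0.97 (SE 0.12), so that called genes did not stop at 95 Mb. The tested genes nearest to the edges were not called: Dusp26 (0.17) just inside and Unc5d (-0.46) just outside the lower edge, and Ccdc102a (0.00) just inside and Adgrg3 (0.24) just outside the upper edge. Adgrg1, which spans the upper edge, had a log2 fold change of 0.14 (SE 0.09).

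Of the 93 calls, 44 (12 higher, 32 lower) held in all 13 other fits of these libraries, which changed the scaling, filter, tool, replicate block or left out a library. Among the 44 were Mtmr7, Slc7a2, Fgl1, Pcm1, Asah1, Dctd, Adcy7, Mmp2, Lpcat2, Orc6, Lsm4, Ednra, Clgn and Sall1. The 5 called members under 1 CPM were not tested in the fit that required 1 CPM and had no adjusted p in DESeq2. Of these, Gm5345 and Tmem221 were called in every fit that tested them. None of the 93 changed direction in any of these fits. Leaving out any of the WT libraries or cKO replicate 2 kept 55 to 60 of the 93 calls, and leaving out cKO replicate 3 kept 83. All 93 stayed called without cKO replicate 1, where 16.4% of all genes were called. Among the genes above, Zfp42 lost its call without WT replicate 1, Pbx4 without any WT library, and Jund, Fto and Nup93 without any WT library or cKO replicate 2. Calls were also lost for Naf1 and Frem3 without any library other than cKO replicate 1, for AW046200 without any WT library or cKO replicate 2, and for Jak3 and Ncan without WT replicate 1 and 1 further library each. Tusc3 was not called when cKO replicate 2 or any WT library was left out. For Mtus1 this held with cKO replicate 2 or WT replicate 2 or 3 left out, and for Frg1 with WT replicate 2 left out. Irf2, Gatad2a, Ano8, Mt1, Gm11175, Gm19410, Gm40493 and Gm34030 lost theirs without at least 1 library, and Gm34030 also in limma-voom.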

How the data were processed

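RNA of 3 WT and 3 cKO testes was sequenced. Per the labels, ribosomal transcripts were depleted and libraries kept strand, while the molecule field names polyA RNA. The deposited table holds unnormalized read counts for each gene, made by the authors with featureCounts 1.6.4 per the file headers (option s1, otherwise default, so that reads mapping to several places or lying over several genes were not counted) on GENCODE M18. Cutadapt, HISAT2 and GRCm38.p5 come from the submitters' processing notes, with versions not given in the sources used here. Of 54232 genes, 54165 were named from GENCODE M21, and 0 columns had no sample.

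Genes were filtered with filterByExpr (minimum count 10, total 15), scaled by TMM and tested with edgeR 4.0.16 in R 4.3.3 (quasi-likelihood, group only, two-sided, Benjamini-Hochberg over 20153 genes). SEs are the log2 fold change over the root of the F statistic. Log2 CPM used a prior count of 2. Steps place a gene by its midpoint. Alternatives used DESeq2 1.42.0 and limma 3.58.1, among others. The fit was also run on counts simulated from its own model, with genes drawn independently. That cannot check the calls of neighbouring genes in these libraries. Copies of called genes were searched with minimap2 2.31-r1302 (95% identity over 30% of the transcript) and found for 4. Genes named are the 12 largest rises and 12 largest falls (at least 1 CPM, groups without overlap, official symbols), called members of the 10 function lists or otherwise the member with the lowest p, the largest change of each step and the called genes nearest the edges, 44 in all, and others are said to be named after their values were seen or are given as not called. Dlc1, Tusc3, Pcm1, Frg1 and Mtus1 were described as neighbours after their values were seen, as were uncalled list members. The segment, lists and tests were chosen with earlier results of these data known. A called member among the largest falls is counted but not reported here by name or plotted.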

Additional observations from a re-analysis of the deposited data

How the results depend on the processing

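Against 18.9% of the segment and 6.96% of the rest of chromosome 8 called, the shares were 10% and 4.3% when low counts were not filtered, 25.1% and 10.9% with at least 1 CPM in 3 libraries, and 10.1% and 2.01% when an absolute log2 fold change of at least 0.5 was also required, where 14 members were higher and 36 lower. With no filter, the median absolute log2 fold changes were 0.465 and 0.376. In DESeq2 the rest of chromosome 8 had 9.71%, and among protein-coding genes the segment had 23.0%. With steps of 10 Mb the highest share was 23.7%. With single libraries left out, the segment ran from 10.8% to 28.4% and the rest of chromosome 8 from 2.49% to 15.7%, with 15 to 54 members higher and 39 to 89 lower, and with median absolute log2 fold changes of 0.226 to 0.239 in the segment and 0.167 to 0.181 in the rest. The highest of these shares and counts came without cKO replicate 1, where 16.4% of all genes were called. The causes were not tested. The 2 other scalings and limma-voom kept the counts within 1.5 times of the above and the shares within their 95% Wilson intervals. By function list, DESeq2 called 4 replication and repair, 6 lysosomal, 2 metal binding and stress and 4 transcription factor genes, and limma-voom 2, 5, 1 and 4. The replicate numbers were not shown to pair the samples: the correlation of same-numbered libraries' deviations was 0.0313, 0.0126 and 0.0652 over 20153 genes. With a replicate block, 31 members were higher and 69 lower, 20.3% of those tested. Depth limits low genes: 5 of 112 members below 1 CPM were called.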
